A study of Mus musculus with 20 samples.

Results

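The comparison described here is imiquimod cream against vehicle in abdominal skin of mice fed control chow. It rests on 10 of the series' 20 arrays, 5 from the group CD-IMQ and 5 from the group CD-vehicle, chosen by the groups in the sample titles and by no measured value. All animals were C57/B6 mice of 9 weeks, and the groups carry no transgene or deletion in the labels. CD mice ate the control chow diet. Their shaved abdomen received a daily dose of 62.5 mg of cream for 5 days, Aldara with 5% imiquimod (IMQ) in CD-IMQ and vehicle in CD-vehicle, and the skin was taken 24 h after the last dose. The other 10 arrays come from HFD-vehicle and HFD-IMQ (5 mice per group), whose mice ate the study's other diet (HFD) and had the same creams, and serve below for comparisons between the diets. They also entered the fit that gives the spread between mice, and with the 10 CD arrays alone 2081 genes were called in place of 2424. Each array measured RNA of 1 mouse, so the spread given is that between mice.

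Imiquimod is a small molecule agonist of Toll-like receptor 7, a sensor of single-stranded RNA in endosomes of dendritic cells and macrophages, and the Aldara cream is used to raise scaly, thickened plaques on mouse skin. Keratinocytes of normal epidermis move from a basal layer with keratins 5 and 14 to suprabasal layers with keratins 1 and 10, and end as dead cells behind a cornified envelope of loricrin, filaggrin, involucrin, SPRR and LCE proteins. In wounded or psoriatic epidermis keratins 6 and 16 replace part of this programme, and keratinocytes release calprotectin, beta-defensins and cytokines of the IL-36 group.

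The values are log2 array intensities after robust multi-array averaging. Over the 10 arrays the median of all features lay between 2.88 and 3.04 and the highest value between 12.89 and 13.03. A mean below the median of the array medians, 2.94, is called near background here. The size of a change that starts there is uncertain, and the number of arrays limits the precision of all others. Within CD-vehicle, mouse 3 accounted for 28.4% of the summed squared distance to the group mean, the largest share among the 10 arrays. Keratinocyte genes were high in both groups (Krt10 at a mean of 11.1 in CD-vehicle and 11.7 in CD-IMQ). Muscle RNA was also present, with Acta1, the skeletal actin gene, at 10.14 and 10.04. Fewer cells of a type and less RNA per cell cannot be told apart in such samples.

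In the limma fit, 2424 of 22180 genes passed a Benjamini-Hochberg adjusted p of 0.05 (10.9%). Of these 868 were higher (3.91%) and 1556 lower (7.02%) in CD-IMQ. Among changes of at least 1 on the log2 scale the balance was the other way, with 208 genes higher and 155 lower. The split between directions also moved with the scaling, to 1108 higher and 1301 lower after quantile normalization, while the median difference of all genes was 0.02 in both cases. In 1971 genes (8.89%) the 5 values of CD-IMQ did not overlap the 5 of CD-vehicle. The plot of members by list gives the range of changes that the following paragraphs describe.

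**Figure D1:**
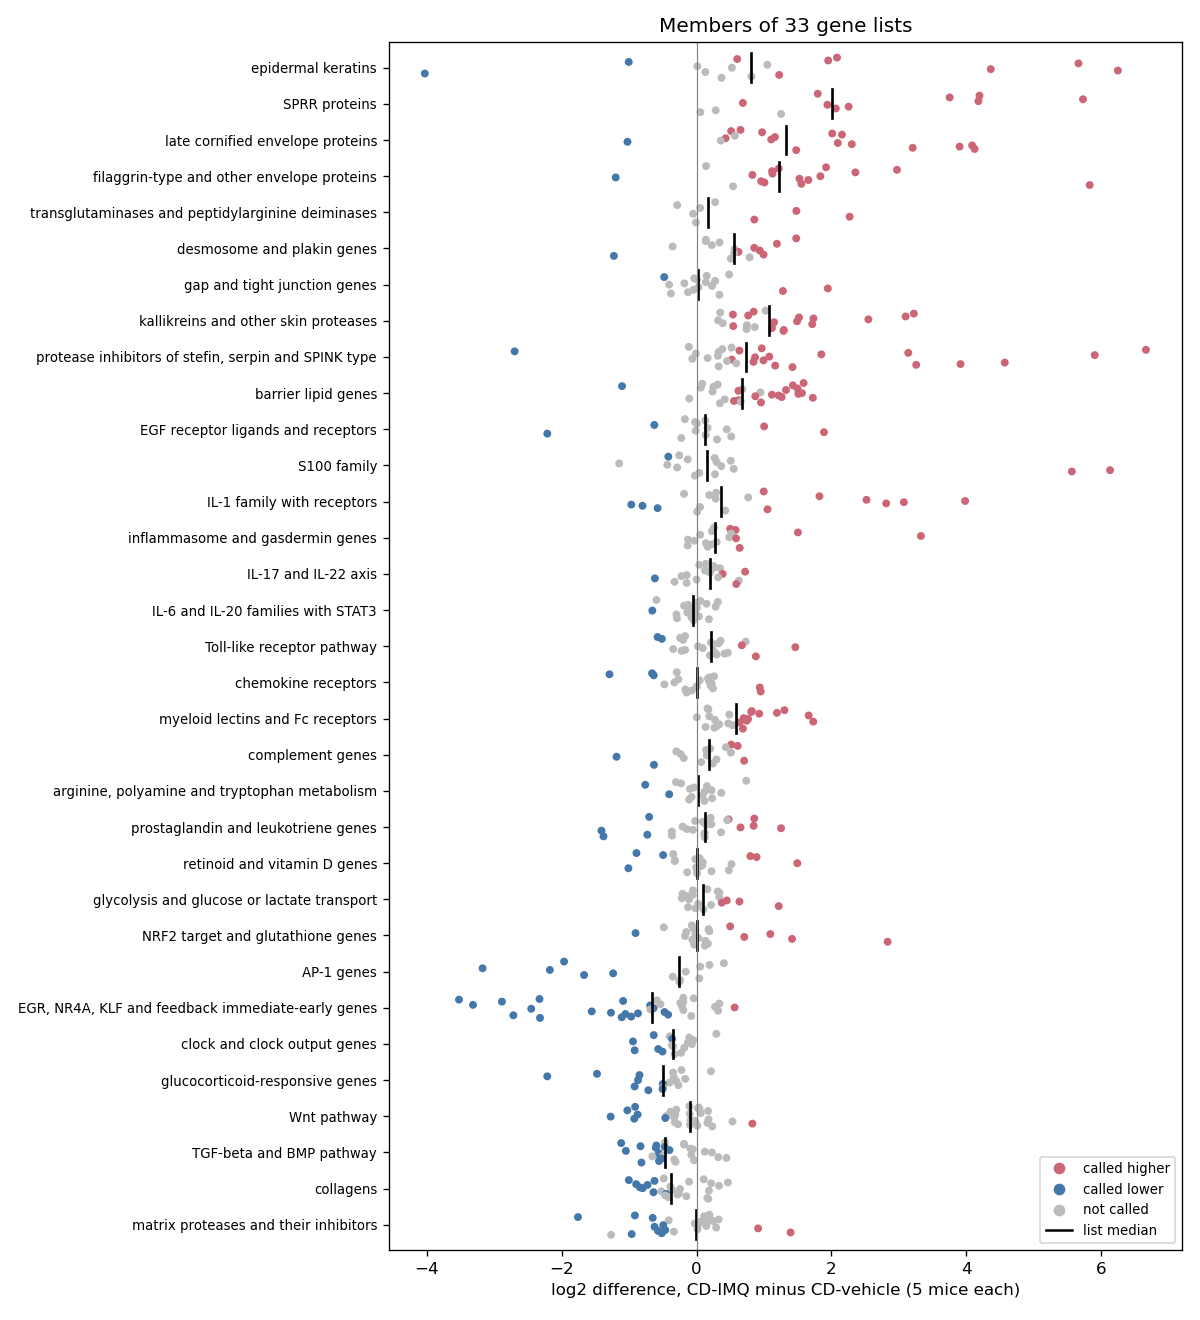
Log2 differences between CD-IMQ and CD-vehicle (horizontal axis, 5 mice each) for the measured members of 33 gene lists (rows). Each point is 1 gene, red where called higher, blue where called lower and grey where not called, and the black bar is the list median. SPRR proteins have the highest median, 2.0, and the EGR, NR4A, KLF list the lowest, -0.66.

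The wound keratin genes Krt6a, Krt6b and Krt16 rose, as did the genes of the normal layers Krt14, Krt1 and Krt10, and the suprabasal keratin gene Krt77 fell. Krt16, the keratin that pairs with keratin 6 in wounds, read 2.33, 2.94, 4.59, 5.14 and 2.27 in the 5 CD-vehicle mice. In the CD-IMQ mice Krt16 read 9.40, 8.67, 9.21, 8.88 and 9.42. The groups lay far apart, and the spread was wide in vehicle skin, where mice 3 and 4 stood above the other mice, and narrow after imiquimod. The difference was 5.66 ± 0.42 (SE), or 50.6-fold, with a limma adjusted p of 4.09e-09. Krt77, a keratin of upper epidermis and sweat ducts, read 9.39, 9.31, 8.39, 9.76 and 9.66 in CD-vehicle and 5.99, 5.15, 6.12, 5.38 and 3.74 in CD-IMQ. Here too no values overlapped, and the fall was 16.3-fold (-4.03 ± 0.39, adjusted p 3.08e-07).

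Of 15 measured epidermal keratins 7 rose and 2 fell, with a median difference of 0.81 against 0.02 for all genes. Krt6b and Krt6a, the partners of Krt16, rose by 6.25 ± 0.49 and 4.36 ± 0.39, and Krt17, the third keratin of that wound set, was 1.05 ± 0.35 higher without passing the test (adjusted p 0.0569). The basal keratin Krt14 rose 3.87-fold and the suprabasal Krt1 4.23-fold, while the partner of the latter, Krt10, rose 1.52-fold (adjusted p 0.0155, and 0.053 at most when an array or setting was changed). Krt15, a keratin of basal and hair bulge cells, fell by 1.0 ± 0.24 with overlapping groups. Keratin genes named a and b, and members of the SPRR2, LCE1, stefin and serpin B3 clusters, resemble each other in sequence. The probes were not examined here, so signal shared between such copies cannot be told apart.

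The small proline-rich genes, which encode cross-linked bricks of the cornified envelope, rose as a group: 9 of 12 measured passed as higher and 0 as lower, and the median difference was 2.0. The upstream sequences of the 3 SPRR members with the largest rises among those with an AP-1 type motif, and of Rptn, are shown because these letters were frequent in this gene group. The letters searched were TGANTCA on both strands in the 250 bases before each start, a word that AP-1 dimers of FOS and JUN proteins are known to bind. Sequences are from RefSeq on GRCm38.p6, 5′ to 3′ in the direction of transcription, with the match in capitals.
Sprr1b (chr3:92438780-92439029, minus strand): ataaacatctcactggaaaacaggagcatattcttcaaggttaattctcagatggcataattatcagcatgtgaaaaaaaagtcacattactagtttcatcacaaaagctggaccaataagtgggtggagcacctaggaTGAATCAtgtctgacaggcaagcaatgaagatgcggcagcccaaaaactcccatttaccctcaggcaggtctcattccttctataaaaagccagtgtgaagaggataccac
Sprr2d (chr3:92338890-92339139, plus strand): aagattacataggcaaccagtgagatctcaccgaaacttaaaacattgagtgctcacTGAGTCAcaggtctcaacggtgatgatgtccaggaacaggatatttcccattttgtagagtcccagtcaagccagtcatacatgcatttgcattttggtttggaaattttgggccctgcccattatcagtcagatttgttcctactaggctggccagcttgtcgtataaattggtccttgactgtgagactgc
Sprr2e (chr3:92351893-92352142, plus strand): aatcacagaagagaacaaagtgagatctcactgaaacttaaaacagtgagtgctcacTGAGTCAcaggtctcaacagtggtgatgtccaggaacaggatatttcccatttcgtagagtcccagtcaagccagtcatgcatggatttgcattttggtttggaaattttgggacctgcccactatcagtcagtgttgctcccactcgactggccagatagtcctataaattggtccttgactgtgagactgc
Rptn (chr3:93393449-93393698, plus strand): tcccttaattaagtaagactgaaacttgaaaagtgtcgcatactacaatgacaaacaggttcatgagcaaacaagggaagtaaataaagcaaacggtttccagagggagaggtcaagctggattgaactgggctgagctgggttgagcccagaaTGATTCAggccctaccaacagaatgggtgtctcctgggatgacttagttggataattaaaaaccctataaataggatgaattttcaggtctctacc

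In all, 9 of 14 SPRR genes with a promoter sequence hold the word (64.3%), as do 8 of 14 genes of filaggrin-type and other envelope proteins (57.1%). The share was 7.82% over 27025 genes with a promoter sequence and 0 of 20 among the LCE genes. Of the 8 measured SPRR genes with the word, 7 rose (Sprr1a, Sprr1b, Sprr2b, Sprr2d, Sprr2e, Sprr2f and Sprr2h) and Sprr2k was not called. The call of Sprr2f was lost without CD-IMQ mouse 3 or 5, or CD-vehicle mouse 1. Sprr3 and Sprr4, the 2 measured SPRR genes whose window lacks it, were not called. Sprr3 read at most 1.6 in CD-IMQ, below the median of the array medians, where a rise cannot be told from the array's floor. The genes without the word therefore give little to compare with. In other lists Lce3c, without the word, rose by 4.08 ± 0.22, and Flg2, with it, fell. A match is a description of letters and was not tested for binding.

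Sprr1b, on the printed minus strand of chromosome 3, read 3.24, 3.17, 4.08, 3.71 and 3.26 in CD-vehicle and 7.58, 7.24, 8.19, 7.26 and 8.14 in CD-IMQ. No values overlapped, and the rise was 18.3-fold (4.19 ± 0.21, adjusted p 9.28e-12). Sprr2d and Sprr2e, whose upstream windows above hold the same word at the same distance of 186 bases from the start, rose by 5.73 ± 0.42 and 4.18 ± 0.29 from means near background in vehicle skin (1.97 and 2.45). Sprr2b rose 13.5-fold. Sprr3 and Sprr4 were not called, and Sprr4 differed by 1.25 with an SE of 0.60.

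Repetin, the product of Rptn, is an envelope protein of the filaggrin type. Rptn read 3.96, 5.12, 3.76, 5.77 and 4.75 in CD-vehicle and 10.4, 10.4, 10.6, 10.6 and 10.5 in CD-IMQ. The treated mice lay close together and above all vehicle mice, and the rise was 56.8-fold (5.83 ± 0.29, adjusted p 9.28e-12). The list of filaggrin-type and other envelope proteins had 14 members higher and 1 lower of 17 measured (15 and 0 without CD-vehicle mouse 4, and 14 and 0 without CD-vehicle mouse 5 or CD-IMQ mouse 5). The filaggrin gene Flg rose 3.57-fold, the involucrin gene Ivl 3.15-fold and the loricrin gene Lor 2.01-fold. Casp14, the caspase that processes filaggrin, rose 7.84-fold. The member that fell was Flg2, filaggrin-2, at -1.20 ± 0.33 with overlapping groups (adjusted p 0.0192, up to 0.07 over the settings).

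Of 18 measured late cornified envelope genes 15 rose and 1 fell (median 1.32). The LCE3 genes, known for their place in psoriasis genetics and wound repair, moved furthest. Lce3c read 4.23, 4.33, 4.03, 5.16 and 4.04 in CD-vehicle and 8.29, 8.34, 8.56, 8.31 and 8.71 in CD-IMQ, without overlap, a 17-fold rise. Lce3d and Lce3f rose 14.9-fold and 17.4-fold, the second from near background at 1.47. Among the LCE1 genes of normal epidermis Lce1f rose 4.46-fold, but Lce1b and Lce1h lost their calls in 7 of 28 settings tried, Lce1i in 18 of 27, and Lce1m was lower by 1.02 ± 0.24 with overlapping groups. The call of Lce1m was lost (adjusted p 0.391) when all features of the gene were averaged.

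**Figure D2:**
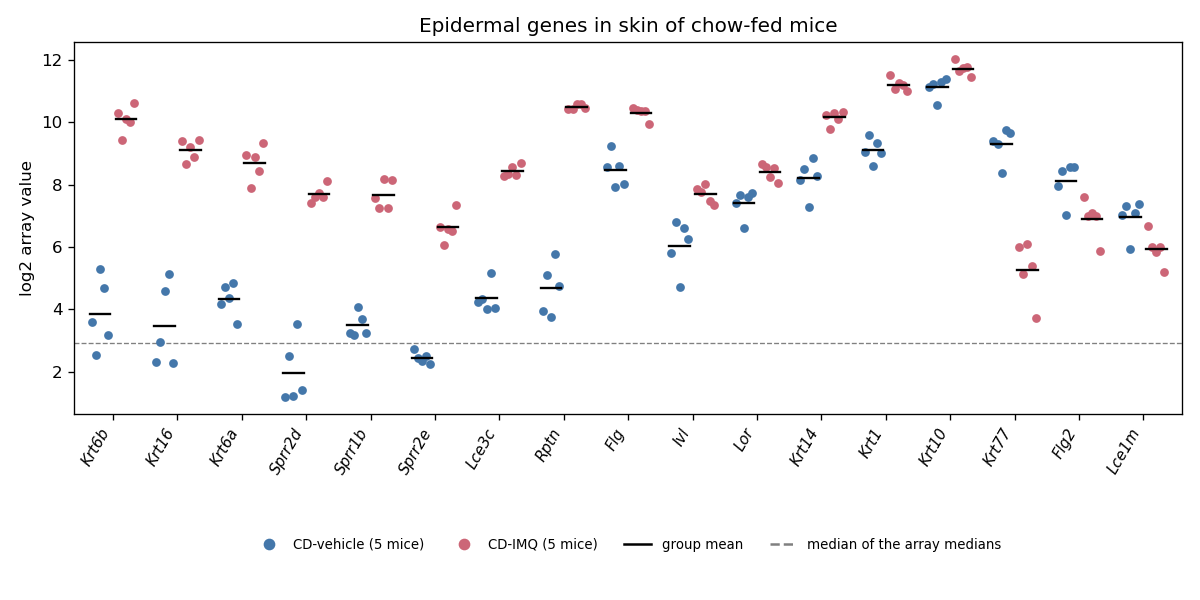
Log2 array values (vertical axis) of 17 epidermal genes in single mice of CD-vehicle (blue) and CD-IMQ (red), with group means as black bars and the median of the array medians (2.94) as a dashed line. Krt6b, Krt16, Sprr2d and Rptn separate most widely, while Krt77 moves from 9.30 to 5.27 and Flg2 and Lce1m overlap between groups.

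Enzymes that build and shed the cornified layer rose with its structural proteins. Of 22 kallikreins and other skin proteases, which cut the links between corneocytes, 15 rose and 0 fell (median 1.07). Klk13, Klk6 and Klk9 led with 9.32-fold, 8.57-fold and 5.84-fold rises, and Klk7, the chymotryptic protease of desquamation, rose 2.87-fold. Tgm1 and Tgm3, transglutaminases that cross-link the envelope, rose 2.79-fold and 4.82-fold, 2 of the 3 that rose among 8 transglutaminases and peptidylarginine deiminases. Of 16 desmosome genes 6 rose and 1 fell (median 0.56), led by the cadherin gene Dsc1 at 2.79-fold. The gap junction gene Gjb2 (connexin 26) rose 3.85-fold, whereas Gja1 (connexin 43) differed by 0.23 ± 0.23.

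Inhibitors of proteases rose beside the proteases. The stefin, serpin and SPINK list had 16 members higher and 1 lower of 28. Csta3, a stefin A type inhibitor of cysteine cathepsins, read 1.11, 1.19, 1.46, 2.31 and 1.43 in CD-vehicle and 7.99, 7.65, 8.47, 7.91 and 8.79 in CD-IMQ. That is the largest rise of a named gene (6.66 ± 0.39) and starts from background. Stfa1, at 6.80 in vehicle skin, rose 23.7-fold from a clear signal to 11.4, and Serpinb3a, the mouse counterpart of a squamous cell antigen, rose 59.8-fold from near background. The member that fell was Serpina3b, from 8.97 ± 0.81 to 6.28 ± 0.52 (SD, n = 5), without overlap. Cstdc6, a stefin-like gene outside the lists, rose by 4.36 ± 0.30.

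Genes of the lipid barrier rose in 15 of 27 cases and fell in 1 (median 0.68). They included Abca12, which loads lipids into lamellar bodies (3.0-fold), Cers3, a ceramide synthase (2.82-fold), the lipoxygenase gene Alox12b (2.69-fold), Sdr9c7 (3.30-fold) and Fabp5, a fatty acid carrier (2.95-fold). Alox12e, a further lipoxygenase gene, fell by 1.10 ± 0.21. Among EGF receptor genes the ligand genes Ereg and Epgn rose (1.89 ± 0.14 and 1.0 ± 0.23), the receptor gene Egfr fell by 0.62 ± 0.13 and its feedback inhibitor Errfi1 by 2.21 ± 0.26. Hbegf and Tgfa differed by 0.14 ± 0.18 and 0.30 ± 0.20 and were not called.

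Alarmins and IL-36 genes rose together, whereas several T cell and dendritic cell cytokine genes stayed near background. S100a8, which encodes a subunit of calprotectin, read 2.68, 3.82, 3.62, 4.38 and 1.89 in CD-vehicle and 9.16, 9.27, 9.56, 9.49 and 9.55 in CD-IMQ. The rise was 70.0-fold and that of its partner S100a9 47.3-fold. No other of the 16 measured S100 genes rose, and S100a10 was lower by 0.42 ± 0.11 (adjusted p 0.0192, not called in 2 of the 28 settings). Saa3, an acute-phase protein of epithelia and macrophages, rose 66.0-fold to 10.6 ± 0.44.

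The IL-1 family list had 7 members higher and 3 lower of 18. Il1f6 (IL-36 alpha) read 4.30, 4.93, 4.39, 6.32 and 4.40 in CD-vehicle, with mouse 4 highest, and 8.89, 8.80, 8.86, 8.88 and 8.80 in CD-IMQ. The rise was 15.8-fold (3.98 ± 0.35, adjusted p 6.33e-08). Il1f8 (IL-36 beta) and Il1f9 (IL-36 gamma) rose 8.41-fold and 7.02-fold, and their natural antagonist Il1f5 rose 5.73-fold. Il1a rose 3.54-fold and the IL-1 receptor antagonist gene Il1rn 2.07-fold. The 3 that fell were receptors: Il1r1 (-0.97 ± 0.14), the decoy Il1r2 (-0.80 ± 0.15) and the IL-36 receptor Il1rl2 (-0.58 ± 0.14). Il1b was not called (0.77 ± 0.43, adjusted p 0.291). Its values of 4.96, 4.91, 6.56, 5.91 and 6.44 in CD-IMQ split within the group, with mice 1 and 2 at the vehicle level of 4.68 to 5.20.

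Of the inflammasome and gasdermin genes 6 of 18 rose (3 without CD-IMQ mouse 1) and 0 fell. Gsdmc rose by 3.33 ± 0.41 and Gsdma by 1.5 ± 0.18, both of them genes of pore-forming proteins of epithelia, while Gsdmd differed by -0.13 ± 0.17 and was not called.

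In the IL-17 and IL-22 list 3 of 19 rose and 1 fell (21.1% called, against 10.9% of all genes). Between 2 and 3 rose and 0 or 1 fell when settings or mice were changed. Il17f read 3.33, 3.43, 3.33, 3.19 and 3.25 in CD-vehicle and 3.55, 4.08, 4.26, 3.93 and 4.30 in CD-IMQ, without overlap and just above background (0.72 ± 0.13, adjusted p 0.00105). Il17a (2.55 and 2.90), Il22 (1.14 and 0.91), Il23a (2.31 and 2.31) and Il6 (1.78 and 1.73) had means near background in CD-vehicle and CD-IMQ and were not called. The same held for Il19, Il20 and Il24. At such levels a change cannot be told from the array's floor. In the IL-6 and IL-20 list 0 of 22 rose and the receptor subunit gene Il6st fell by 0.66 ± 0.12 (4.55% called). With CD-vehicle mouse 5 left out 2 of these genes fell, and after quantile normalization 1 rose.

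The receptor for imiquimod itself, Tlr7, read 4.95, 5.29, 4.55, 5.21 and 5.22 in CD-vehicle and 5.49, 5.73, 5.21, 5.31 and 5.81 in CD-IMQ. The groups overlapped and the difference of 0.46 ± 0.17 was not called (adjusted p 0.0786). Myd88, the adaptor of this receptor, differed by 0.21 (adjusted p 0.247). Tlr13, a sensor of bacterial ribosomal RNA, rose 2.76-fold, and Unc93b1, which carries such receptors to endosomes, 1.84-fold. In the Toll-like receptor list 3 of 23 rose and 2 fell (21.7% called, against 10.9% of all genes). When mice or settings were changed, between 2 and 5 rose and between 0 and 2 fell.

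Myeloid genes rose in part. Of 24 myeloid lectins and Fc receptors 12 rose and 0 fell (median 0.59), led by Fcgr4 at 3.32-fold (from near background), Clec4n (dectin-2) at 3.16-fold and Clec12a at 2.47-fold. Clec4n read 5.19, 5.34, 5.08, 5.33 and 5.25 in CD-vehicle and 6.58, 6.82, 7.06, 6.78 and 7.25 in CD-IMQ, with no overlap. Among 10 general macrophage and monocyte markers 5 rose and 0 fell (3 and 0 when CD-IMQ mouse 3 or 5, or CD-vehicle mouse 1 or 3, was left out), with Adgre1 (F4/80) at 2.17-fold and Cd68 at 1.84-fold, while Lyz2 and Csf1r were not called. The summed level of that list, as a mean over its genes, ranged from 7.06 to 7.49 in CD-vehicle and from 7.55 to 7.92 in CD-IMQ. The part of cell numbers in these rises was not tested.

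Neutrophil markers rose in 5 of 12 cases. Beside S100a8 and S100a9, which keratinocytes also make, these were Csf3r (2.15-fold), Cxcr2 (1.91-fold) and Mmp8 (1.88-fold, from near background). Csf3r read 4.52, 4.32, 4.32, 4.0 and 3.75 in CD-vehicle and 4.76, 4.98, 5.54, 5.71 and 5.43 in CD-IMQ, without overlap. The granule and surface genes Ly6g, Mpo, Elane, Ltf and Camp lay near background in both groups, between 1.73 and 2.49.

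Genes of alternatively activated dermal macrophages divided. Retnla fell 4.12-fold, Mgl2 3.94-fold and Ccl24, an eosinophil chemoattractant, 3.09-fold. Mgl2, a galactose lectin of dermal macrophages and dendritic cells, read 6.48, 6.32, 6.61, 7.13 and 6.94 in CD-vehicle and 5.33, 4.62, 4.73, 5.02 and 3.88 in CD-IMQ. No values overlapped, and mouse 5 of CD-IMQ was lowest. The resident markers Mrc1 and Cd163 (CD206 and a haemoglobin scavenger receptor) differed by 0.11 ± 0.16 and 0.15 ± 0.14 and were not called. Of the list's 11 measured genes 3 fell and 1, Cbr2, rose. Cd209e, a lectin gene outside the lists and chosen after its values were seen, fell by 1.91 ± 0.24.

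Among markers of other leukocytes 11.1% of the T and NK cell list were called, near the 10.9% of all genes. Many of these markers could not show a change. Near background in both groups lay 4 of 9 T and NK cell, 4 of 7 B cell, 2 of 9 mast cell and 4 of 5 eosinophil markers. Of 9 T and NK cell markers Cd4 alone rose (1.63-fold), and 0 of 7 B cell, 0 of 9 mast cell and 0 of 5 eosinophil markers were called. Lists this short hold about 1 call or fewer at the share of all genes, so these counts say little about the cells. H2-Aa and H2-Ab1, class II genes of dendritic cells and macrophages, fell by 0.54 ± 0.13 and 0.50 ± 0.12. They belong to the Langerhans and dendritic cell markers, of which 2 of 9 measured fell, 0 rose and 7 were not called (22.2% called, median -0.15). In some settings 1 of these markers rose. Among chemokine receptors the scavenging receptors Ackr3 and Ackr2 fell by 1.29 ± 0.12 and 0.66 ± 0.13.

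**Figure D3:**
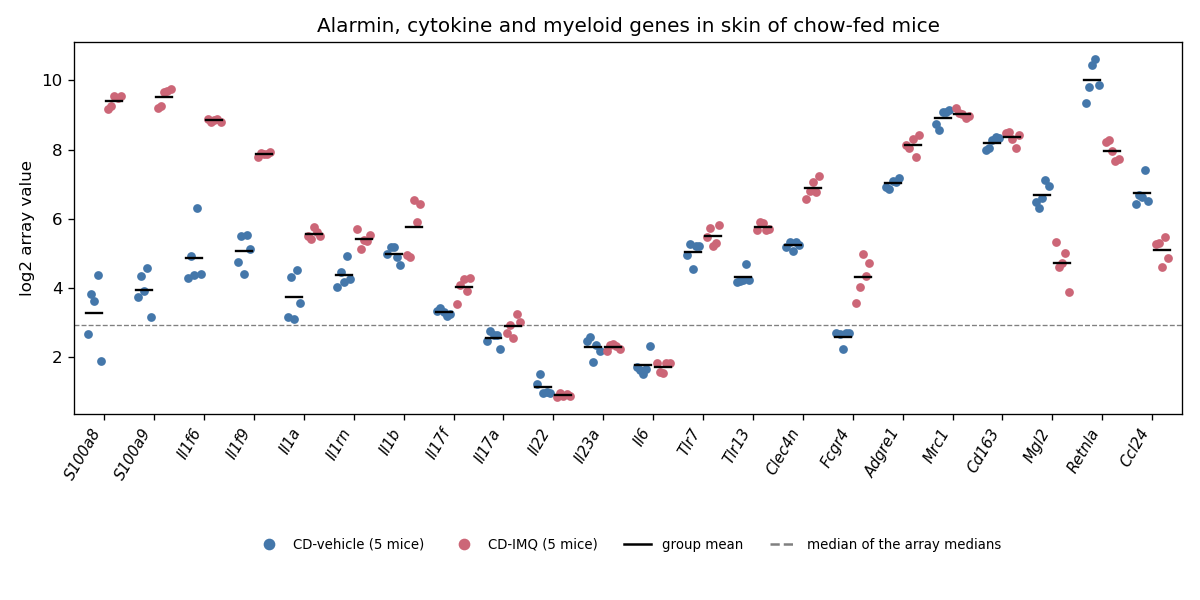
Log2 array values (vertical axis) of 22 alarmin, cytokine and myeloid genes in single mice of CD-vehicle (blue) and CD-IMQ (red), with group means as black bars and the median of the array medians (2.94) as a dashed line. S100a8, S100a9 and Il1f6 separate widely, Il17a, Il22, Il23a and Il6 lie near or below the dashed line, and Mgl2, Retnla and Ccl24 are lower in CD-IMQ.

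Immediate-early genes, which cells switch on within minutes of growth factors or stress and switch off again, were lower after imiquimod. Of 13 AP-1 genes 5 fell and 0 rose, and of 32 EGR, NR4A, KLF and feedback genes 18 fell and 1 (Gadd45b) rose, with medians of -0.26 and -0.66. Fos read 8.05, 8.33, 8.55, 8.06 and 7.10 in CD-vehicle and 5.84, 4.89, 4.68, 3.97 and 4.87 in CD-IMQ, a 9.01-fold fall (-3.17 ± 0.41, adjusted p 1.70e-05). Nr4a1, an orphan nuclear receptor gene, read 8.37, 8.54, 8.21, 6.03 and 5.74 in CD-vehicle and 4.61, 4.36, 5.12, 4.57 and 4.66 in CD-IMQ. The groups did not overlap, but within vehicle skin mice 4 and 5 stood well below mice 1 to 3.

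Ccn1, a matricellular protein gene, fell most of the list, 11.5-fold, from 9.19, 9.36, 9.06, 8.33 and 7.40 in CD-vehicle to 5.45, 4.52, 5.38, 5.25 and 5.13 in CD-IMQ. Vehicle mouse 5 was again lowest. Dusp1, a phosphatase that ends MAP kinase signals, fell 7.38-fold, Zfp36, which promotes decay of cytokine mRNAs, 4.99-fold, and Btg2 5.02-fold. Jun fell 2.36-fold and Fosl2 was not called (-0.16 ± 0.14).

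The 250 bases upstream of 3 of these fallen genes are shown because they hold known words of transcription factors. In Dusp1 and Btg2 this is TGACGTCA, the word of CREB and ATF factors. In Zfp36 it is a CArG box, the word of serum response factor. Both strands were searched, and the match is in capitals. TGACGTCA contains no match to TGANTCA.
Dusp1 (chr17:26508473-26508722, minus strand): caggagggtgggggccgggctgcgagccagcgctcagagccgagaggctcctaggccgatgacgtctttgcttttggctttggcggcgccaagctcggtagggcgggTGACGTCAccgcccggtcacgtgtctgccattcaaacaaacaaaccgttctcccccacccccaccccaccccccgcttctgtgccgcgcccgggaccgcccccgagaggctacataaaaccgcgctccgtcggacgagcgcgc
Btg2 (chr1:134079156-134079405, minus strand): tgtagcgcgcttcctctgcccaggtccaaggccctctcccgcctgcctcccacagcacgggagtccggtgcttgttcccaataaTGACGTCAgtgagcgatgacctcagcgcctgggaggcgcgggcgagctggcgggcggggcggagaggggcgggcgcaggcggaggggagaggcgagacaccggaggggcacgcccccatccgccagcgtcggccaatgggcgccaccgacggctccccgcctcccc
Zfp36 (chr7:28379229-28379478, minus strand): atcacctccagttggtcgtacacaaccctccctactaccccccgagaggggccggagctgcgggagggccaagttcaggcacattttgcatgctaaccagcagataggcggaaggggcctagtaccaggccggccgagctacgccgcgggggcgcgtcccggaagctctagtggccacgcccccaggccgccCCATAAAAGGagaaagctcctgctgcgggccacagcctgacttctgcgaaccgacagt

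Of 25 genes of the EGR, NR4A, KLF list with a promoter sequence, 2 hold TGACGTCA (8.0%) and 3 a CArG box (12%), against 1.77% and 1.62% of all 27025 genes. Most of the fallen members, Ccn1, Nr4a1 and Klf6 among them, hold neither in this window, which says nothing about the factors. A further word searched, CACGTG, was more frequent, in 7 of the 25 (28%) against 6.86% of all genes. Dusp1 is among the 7, and the word is not marked in its sequence. Among clock genes with a promoter sequence 5 of 16 held CACGTG (31.2%). Of these Per1 fell and the others were not called, while Cry2 and Per3, which fell, lack the word. In the AP-1 list 3 of 11 held it (27.3%), all of them not called.

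For these genes the vehicle group of the chow-fed mice stood apart from all others. Mean Fos was 8.02 in CD-vehicle, and 4.85 in CD-IMQ, 5.44 in HFD-vehicle and 5.58 in HFD-IMQ. The difference between the diets in the effect of imiquimod, tested as an interaction in the same fit, was -3.31 for Fos (adjusted p 0.00966), -3.24 for Nr4a1 (0.00916), -3.36 for Ccn1 (0.00124) and -3.05 for Dusp1 (0.00136). Over all genes 147 such terms passed (0.663%), of which 12 lay among the 32 EGR, NR4A, KLF genes and 4 among the 13 AP-1 genes. The number over all genes ranged from 57 to 198 when single mice were left out. It fell to 57 without CD-IMQ mouse 4, 75 without CD-IMQ mouse 5, 83 without CD-vehicle mouse 3, 95, 61 and 94 without HFD-IMQ mouse 1, 2 and 5, and 60 without HFD-vehicle mouse 1. Even so, the terms of Fos, Nr4a1, Ccn1 and Dusp1 passed in each of the 27 settings tried. Each of these settings used 1 spread per gene for all 4 groups. The SD of Nr4a1 was 1.372 in CD-vehicle, 0.279 in CD-IMQ, 0.203 in HFD-vehicle and 0.185 in HFD-IMQ. For Fos the SD was 0.556 in CD-vehicle, below the 0.668, 0.856 and 0.883 of those groups. Unequal spread between groups was not tested. Both the effect in CD mice and this difference use the CD-vehicle arrays.

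**Figure D4:**
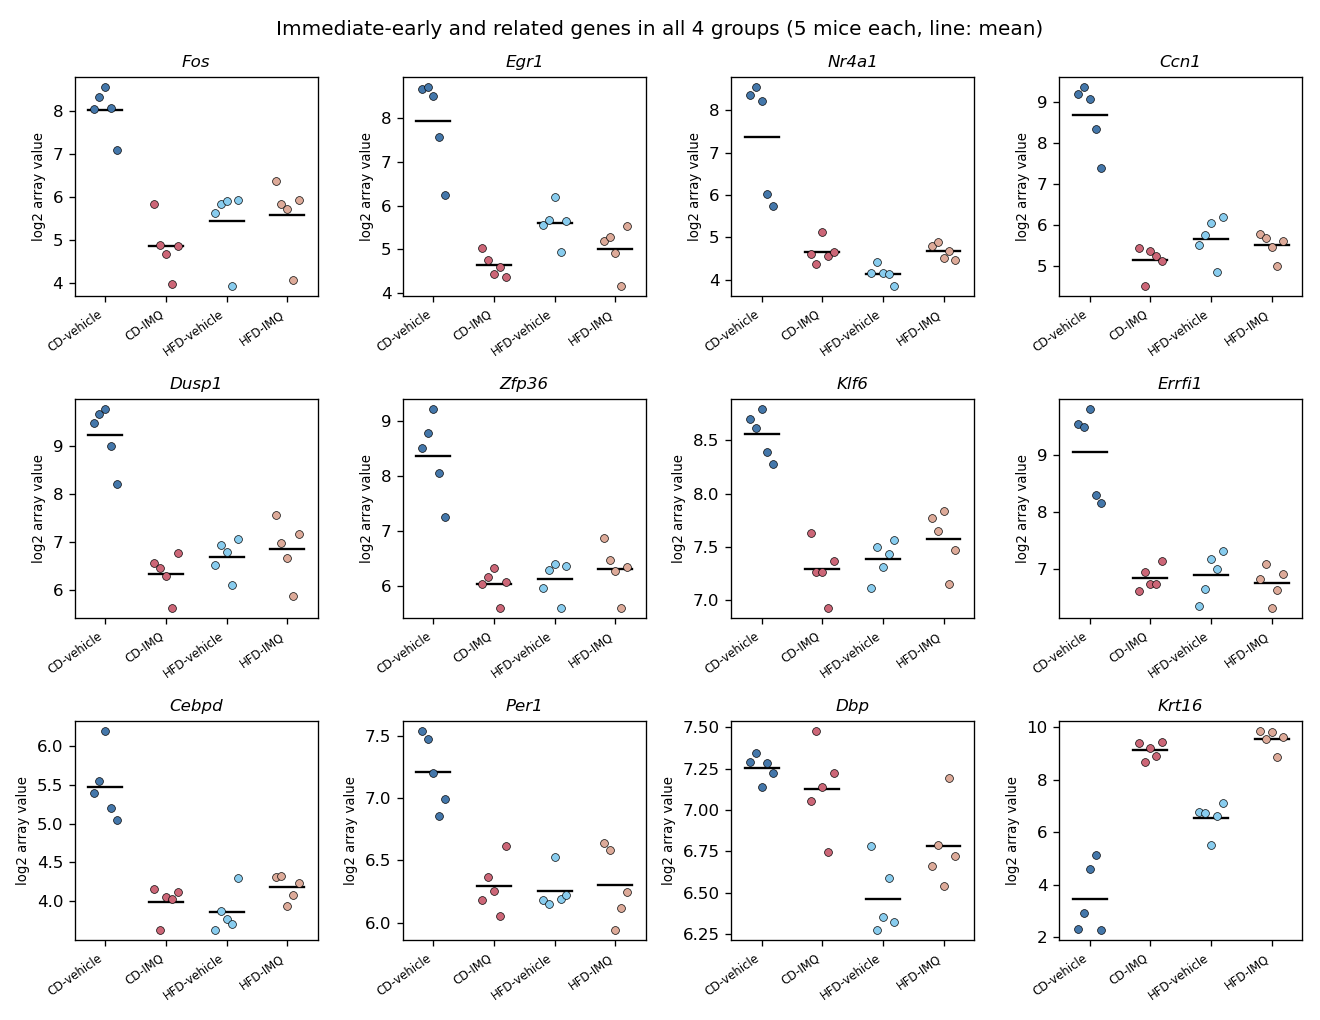
Log2 array values (vertical axes, scaled per panel) of 12 genes in single mice of all 4 groups, with the mean as a black line. For Fos, Egr1, Nr4a1, Ccn1, Dusp1, Zfp36, Klf6, Errfi1, Cebpd and Per1 the CD-vehicle mean stands above the other 3 groups, whereas Dbp differs little between the CD groups and Krt16 is lowest in CD-vehicle.

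Part of the glucocorticoid-responsive genes, and of the clock genes that share Per1 with them, fell too. Of 17 glucocorticoid-responsive genes 8 fell and 0 rose (median -0.50), and of 17 clock and clock output genes 6 fell and 0 rose (median -0.35). The 8 include the gene of the glucocorticoid receptor itself and a KLF gene already counted in the EGR, NR4A, KLF list. The largest fall among them is that of Errfi1, given above with the EGF receptor genes. In HFD mice 0 of the 17 glucocorticoid-responsive genes rose and 0 fell. Cebpd, a transcription factor gene, fell by 1.48 ± 0.17 and Per1, which belongs to both lists, by 0.92 ± 0.15. Per1 read 7.54, 7.47, 7.20, 6.86 and 6.99 in CD-vehicle and 6.18, 6.36, 6.25, 6.05 and 6.62 in CD-IMQ, without overlap. Cry2 fell by 0.94 ± 0.16 and Per3 by 0.51 ± 0.11. The strongly rhythmic output gene Dbp (-0.13 ± 0.14), the core gene Arntl (0.29) and the repressor Nr1d1 (-0.18) were not called, and neither was the glucocorticoid target Fkbp5 (-0.34 ± 0.13). The diet difference passed for Cebpd (-1.80, adjusted p 0.00136) in all 27 settings, whereas that of Per1 (-0.97, adjusted p 0.037) was lost in 12 of them.

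Few precursor loci of miRNAs changed. Of 483 miRNA loci with a feature 9 rose and 17 fell (5.38% called, below the 10.9% of all genes). The loci named were picked once their values were known, and the array reads the precursor, so the arms cannot be told apart. Mature sequences of 4 with a fall of more than 1 and groups that did not overlap are given from RefSeq on GRCm38.p6, with the seed (bases 2 to 8) in capitals. No seed is shared among them.
miR-23a-3p (chr8:84208563-84208583, plus strand): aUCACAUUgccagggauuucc
miR-27a-3p (chr8:84208727-84208747, plus strand): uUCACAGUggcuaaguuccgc
miR-15a-5p (chr14:61632075-61632096, minus strand): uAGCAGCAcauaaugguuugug
miR-7a-5p (chr13:58392841-58392863, minus strand): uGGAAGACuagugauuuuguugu

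Mir23a and Mir27a, neighbours on chromosome 8, fell by 1.76 ± 0.24 and 1.69 ± 0.22. Mir27a read 5.38, 5.90, 5.34, 5.40 and 5.43 in CD-vehicle and 4.32, 3.09, 4.0, 3.67 and 3.91 in CD-IMQ. Both stood near their CD-IMQ level in HFD mice, and their diet differences passed (-1.61, adjusted p 0.0289, and -1.69, adjusted p 0.0125). Mir15a and Mir7-1 fell by 1.19 ± 0.24 and 1.17 ± 0.17.

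Genes of the dermis fell in part. Of 26 collagens 8 fell and 0 rose (median -0.38), 5 fell without CD-IMQ mouse 3, and after quantile normalization 7 fell and 1 rose. Col14a1 was lower by 1.0 ± 0.16, Col4a1 by 0.84 ± 0.16 and Col1a1, the chain of the main dermal collagen, by 0.89 ± 0.23 with overlapping groups. Fibroblast markers fell in 5 of 8 cases (3 without CD-IMQ mouse 3 or CD-vehicle mouse 1) and rose in 0, Pdgfra by 0.78 ± 0.17. Of 27 TGF-beta and BMP genes 12 fell and 0 rose, and 7 fell without CD-IMQ mouse 4 or CD-vehicle mouse 3. In several settings 1 of them rose. With the CD arrays alone, and after quantile normalization, 1 rose and 9 fell. Bmp4 read 5.52, 5.87, 5.14, 5.82 and 5.04 in CD-vehicle and 4.47, 4.52, 4.31, 4.03 and 4.48 in CD-IMQ, a 2.17-fold fall without overlap. In the Wnt list 6 of 30 fell, among them Sfrp4 (-1.27 ± 0.15) and the bulge stem cell gene Lgr5 (-1.02 ± 0.22), and Wnt4 rose 1.77-fold.

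Matrix proteases and their inhibitors had 9 members lower and 2 higher of 26. The aggrecanase gene Adamts5 fell 3.38-fold and the inhibitor gene Timp3 1.95-fold, while Timp1, an inhibitor gene that inflammation induces, rose 2.63-fold. Tnc, the wound matrix protein tenascin C, rose 4.70-fold and Vegfa fell 2.37-fold. Tnc and Vegfa belong to no list and were picked once their values were known.

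The adipocyte hormone gene Lep read 7.13, 8.08, 8.74, 9.15 and 7.38 in CD-vehicle and 4.87, 7.05, 5.33, 4.35 and 6.57 in CD-IMQ. The groups did not overlap but nearly met, at CD-vehicle mouse 1 and CD-IMQ mouse 2, and the fall was 5.51-fold (-2.46 ± 0.45, adjusted p 0.000892). Of 8 adipocyte markers 2 fell, Lep and Plin4, and Adipoq (-0.47) and the other members were not called. Npr3, the clearance receptor for natriuretic peptides, fell 7.57-fold with CD-IMQ mice 2 and 5 highest of their group, as they were for Lep. The mean level of the adipocyte list ranged from 7.70 to 9.10 in CD-vehicle and from 6.99 to 8.62 in CD-IMQ, and the part of fat in the samples was not tested.

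Hair follicle genes varied from mouse to mouse. Tchh, trichohyalin of the inner root sheath, read 7.80, 7.54, 1.84, 6.25 and 6.89 in CD-vehicle and 3.22, 2.22, 2.62, 2.58 and 3.13 in CD-IMQ. Vehicle mouse 3 lay below every treated mouse, so the groups overlapped. Of 18 hair markers 5 fell (3 without CD-vehicle mouse 1 or 2, or CD-IMQ mouse 2) and 0 rose, with 0 free of overlap. In HFD mice Tchh went from 9.95 to 3.02. Among the hair markers 6 of 18 diet differences passed, of which that of Krt25 (3.53, adjusted p 0.0375) was lost in 12 of 27 settings.

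Some genes of transport and redox metabolism rose. Slc7a11, the cystine importer, read 2.25, 1.79, 1.73, 1.88 and 1.69 in CD-vehicle and 4.57, 4.60, 4.58, 4.81 and 4.96 in CD-IMQ, without overlap and from background. Hmox1, haem oxygenase, rose 2.67-fold and Gsta4 2.13-fold, among 5 of 22 NRF2 target and glutathione genes that rose, beside 1 that fell (median 0.01). Over all genes 3.91% rose. Nqo1, Gclm and Txnrd1, well-known targets of NRF2, were not called. Of 19 glycolysis genes 4 rose (2 without CD-IMQ mouse 1 or CD-vehicle mouse 2 or 3), chiefly the glucose transporter gene Slc2a1 at 2.33-fold, while Hk2, Ldha and Gapdh were not called. Of 361 Slc genes, which encode solute carriers, 26 rose (7.2%, against 3.91% of all genes) and 14 fell (3.88%, against 7.02%).

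Further rises outside the lists, again picked with values known, were the beta-defensin genes Defb3 (9.83-fold, from background), Defb14 (6.70-fold, from background) and Defb4 (5.28-fold), the chitinase-like Chil1 (9.35-fold), the siderophore-binding Lcn2 (6.09-fold), the water and glycerol channel Aqp3 (4.77-fold) and the sodium-glucose carrier Slc5a1 (4.48-fold, from background). Of 11 Skint genes, which encode membrane proteins of keratinocytes and thymus and were likewise picked with values known, 1 rose and 3 fell (27.3%, against 7.02% of all genes), with a median of -0.29. Skint5 (-1.60 ± 0.22), Skint9 (-1.18 ± 0.24) and Skint6 (-1.07 ± 0.30) fell, Skint3 rose by 0.78 ± 0.22, and the other 7 were not called. Mup3 and Dapl1, the second a gene of differentiating epithelia, fell by 2.29 ± 0.34 and 2.25 ± 0.33.

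The other lists had few called genes or calls in both directions, though the shares called lay above the 10.9% of all genes in several. Called were 23.8% of the chemokine receptor, 31.2% of the complement and 12.5% of the arginine list. For retinoid and vitamin D genes the share was 28.6%, and for gap and tight junction genes 17.6%. Of 21 chemokine receptor genes 2 rose and 3 fell, and of 16 complement genes 3 rose and 2 fell (1 and 2 without CD-IMQ mouse 3 or 5, or CD-vehicle mouse 1 or 3). Of 16 genes of arginine, polyamine and tryptophan metabolism 0 rose and 2 fell, and of 21 retinoid and vitamin D genes 3 rose and 3 fell (1 and 1 without CD-IMQ mouse 3 or CD-vehicle mouse 3). Among 17 gap and tight junction genes 2 rose and 1 fell. Of cell type markers, 1 of 7 endothelial genes fell (Tek), 1 of 8 mammary epithelial genes rose (Krt19), and of 8 sebocyte genes 1 rose (Elovl3) and 1 fell (Scd3). The calls of Krt19 and Elovl3 were lost in several settings. Of 7 melanocyte, 5 Schwann cell and 9 skeletal muscle genes 0 were called, and lists of this size hold about 1 call or fewer at the 10.9% of all genes. In the muscle list 1 gene fell without CD-IMQ mouse 1, and 1 rose without CD-IMQ mouse 5 and with the replicate block.

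In enzymes of lipid mediators and retinoids rises and falls were mixed. Of 26 prostaglandin and leukotriene genes 5 rose and 4 fell (34.6% called, against 10.9% of all genes). Ptgs2, the inducible cyclooxygenase gene, read 6.10, 6.01, 5.49, 4.46 and 3.92 in CD-vehicle and 3.72, 3.56, 4.38, 3.17 and 4.26 in CD-IMQ. Vehicle mice 1 to 3 were high and vehicle mouse 5 within the treated range, and the fall of 1.38 ± 0.34 passed (adjusted p 0.0104). Dhrs9, a retinol dehydrogenase gene, rose 2.82-fold and Aldh1a1 fell 1.85-fold. Arg1 and Nos2 were not called (0.74 ± 0.27 and 0.12 ± 0.12).

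Treated mice were more alike than vehicle mice for the genes that changed most. Among the 208 genes higher by at least 1, the SD between mice was larger in CD-vehicle for 159 (76.4%), with a median SD of 0.463 in CD-vehicle and 0.229 in CD-IMQ. Among the 155 lower by at least 1 it was larger in CD-vehicle for 106 (68.4%), with median SDs of 0.437 and 0.326. Over the 19756 genes not called the share was 48.4%. These genes were picked by their means in the same mice, and the spread was not tested.

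The response in chow-fed and HFD mice can be set side by side, since the 2 mean differences share no arrays. Their p-values do share the spread estimated over all 20 arrays. In HFD mice 1306 genes passed (5.89%), 809 higher (3.65%) and 497 lower (2.24%). Rises of epidermal genes differed between diets in some cases. The interaction passed for Rptn (2.94, adjusted p 0.00136), Sprr1b (1.72, 0.00916), Lce3c (1.61, 0.0201), Gsdma (1.39, 0.0129) and Chil1 (1.61, 0.0113), while that of Krt16 (2.67, 0.0387) was lost in 18 of 27 settings. In these genes the IMQ means were close (Rptn 10.5 in CD and 10.4 in HFD) and the vehicle means apart (Rptn 4.67 and 7.5). Between CD-IMQ and HFD-IMQ 0 genes passed in limma, with 2289 at an unadjusted p under 0.05, and between the vehicle groups 483 passed (2.18%). For S100a8, Csta3, Krt77 and Mgl2 the interaction did not pass, with adjusted p of 0.211, 0.147, 0.688 and 0.989.

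**Figure D5:**
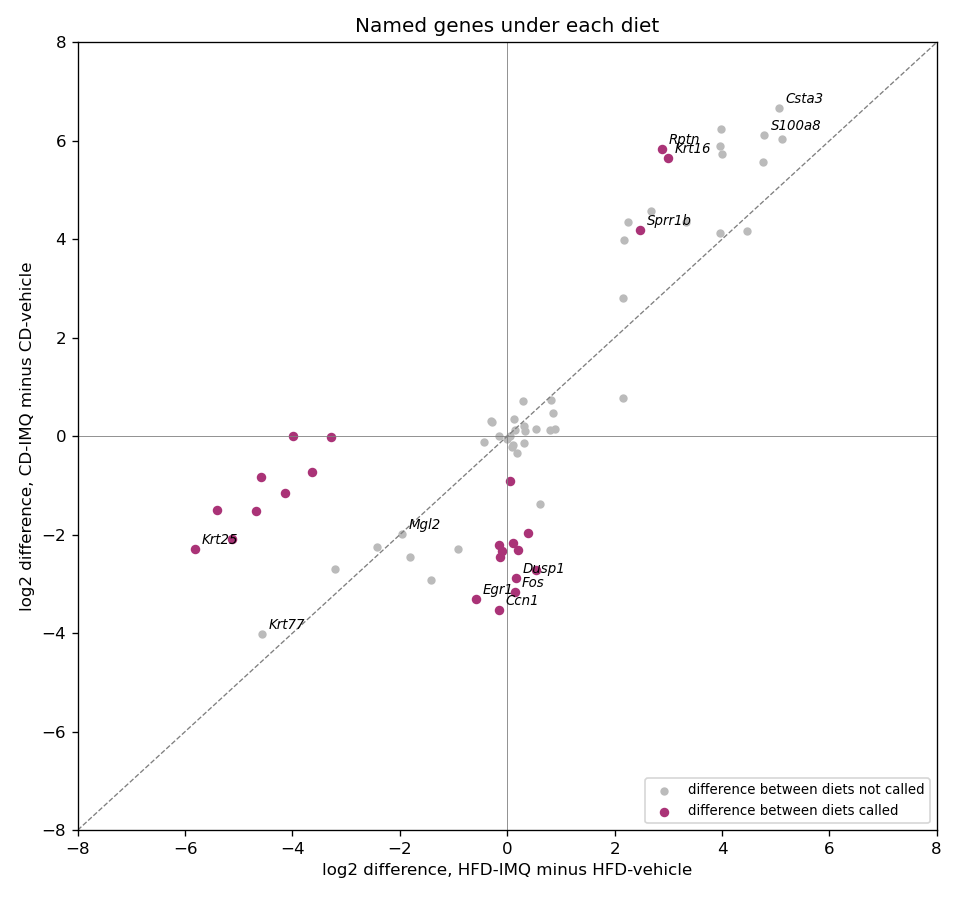
Log2 difference between imiquimod and vehicle in chow-fed mice (vertical axis) against that in HFD mice (horizontal axis) for 67 genes with the largest changes, the largest diet differences or a fixed place in the text, 1 point per gene, with purple where the difference between diets passed and a dashed line of equal change. Fos, Ccn1, Egr1 and Dusp1 lie near 0 on the horizontal axis, at 0.14, -0.16, -0.59 and 0.17, Rptn and Krt16 lie above the dashed line, and hair follicle genes such as Krt25 fell further in HFD mice (-5.82) than in chow-fed mice (-2.28).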

How the data were processed

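Skin RNA of 20 mice was hybridised to Affymetrix whole-transcript arrays after labelling of 300 ng RNA with the WT PLUS kit, per the labels' protocols. The deposited values are log2 intensities that the authors made by robust multi-array averaging (RMA) with affy, per the submitters' processing notes. No version of either is stated. Of 41345 features, 23521 had 1 gene symbol, 1814 several and 16010 none in the platform annotation, and only the first kind was used. Where a gene had several features, the brightest on average across all 20 arrays was kept (22180 genes, of which 1082 had more than 1 feature).

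The 4 group means were fitted over all 20 arrays with limma 3.58.1 in R 4.3.3 (lmFit, eBayes), so that all groups share an estimate of the spread. Contrasts were CD-IMQ minus CD-vehicle, the same for HFD, and the difference of both. P-values were adjusted by Benjamini-Hochberg over all genes, and a gene is called at an adjusted p below 0.05. The limma p-values set a difference of group means against the spread between mice, estimated over all 4 groups. Fold changes are powers of 2 of the log2 difference, and array values compress them. Tables and plots used Python 3.11.15, pandas 2.3.3, numpy 2.4.6 and matplotlib 3.10.9. The fit was tested on simulated data.

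The members and the gene lists were chosen with earlier results of these data known. Genes named were the 15 largest rises and 15 largest falls without overlap between groups (without predicted, small RNA, pseudogene and chemoreceptor names), up to 6 called members of each list by size, a followed set, and the 10 largest diet differences in each direction. Flg2, Lor, Lce1b, Lce1h, Lce1i, Lce1m, Alox12e, Il1r1, Il1r2, Il1rl2, Gadd45b and Klf6 are list members outside this rule and were chosen after their values were seen. Replicate numbers were not taken to pair the mice: of 5 same-numbered CD pairs 1 had a correlation of deviations above 0.1 (range -0.177 to 0.125). Over all 30 same-numbered pairs of the 4 groups 4 did, 3 of them between CD-vehicle and HFD-IMQ (0.157, 0.203 and 0.32). Alternatives were quantile normalization, median centring, array weights, a robust trended fit, dim genes left out, the mean of a gene's features, the CD arrays alone, a minimum change of 1, a replicate block and leaving out each mouse.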

Additional observations from a re-analysis of the deposited data

Results flagged for a closer look

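For the 191 genes named in the text, each group of 5 mice was searched for a mouse far from the others by Dixon's test. Of 382 groups 29 held one, where chance gives about 1 in 20. The values are on the log2 scale. CD-vehicle mouse 3 was far below the others of its group for Arntl at 3.62, Cbr2 at 7.30, Dapl1 at 6.22, Fcgr4 at 2.24, Gadd45b at 4.63, Hmox1 at 6.14, Klk7 at 6.78, Lce1i at 0.62, Lce1m at 5.95, Lor at 6.61 and Tchh at 1.84. CD-vehicle mouse 4 was far above the others of its group for Ccl24 at 7.42, Clec12a at 5.77, Csta3 at 2.31, Lce3c at 5.16 and Tlr13 at 4.71. CD-IMQ mouse 5 was far below the others of its group for Abca12 at 7.76, Flg at 9.95 and Skint6 at 1.75. CD-IMQ mouse 3 was far above the others of its group for Sfrp4 at 3.92 and Sprr3 at 1.6. CD-IMQ mouse 4 was far below the others of its group for Clec12a at 6.15 and Tek at 3.33. CD-IMQ mouse 5 was far above the others of its group for Arg1 at 5.34 and Per3 at 4.73. CD-IMQ mouse 1 was far above the others of its group for Krt15 at 7.11. CD-IMQ mouse 2 was far below the others of its group for Cebpd at 3.63. CD-vehicle mouse 2 was far above the others of its group for Mir27a at 5.90. CD-vehicle mouse 5 was far above the others of its group for Il6 at 2.33.

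The effect of imiquimod differed between the diets, by the interaction term of the limma fit, for 24 of these genes. It was above 0 for Chil1 (1.61), Ereg (0.90), Gsdma (1.39), Krt16 (2.67), Krt25 (3.53), Lce3c (1.61), Rptn (2.94) and Sprr1b (1.72). It was below 0 for Ackr3 (-0.97), Btg2 (-2.23), Ccn1 (-3.36), Cebpd (-1.80), Dusp1 (-3.05), Egr1 (-2.72), Errfi1 (-2.07), Fos (-3.31), Jun (-1.21), Klf6 (-1.46), Mir23a (-1.61), Mir27a (-1.69), Nr4a1 (-3.24), Per1 (-0.97), Vegfa (-1.46) and Zfp36 (-2.51). The terms of Krt16, Ereg, Krt25 and Per1 were lost in 12 or more of 27 settings. Causes were not tested.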

How the results depend on the processing

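The 2424 genes called in chow-fed skin became 1741 to 2636 when single mice were left out, and 363 with a minimum log2 change of 1. The split of higher and lower genes was 868 and 1556, and 1108 and 1301 after quantile normalization. The 147 diet differences became 261 with dim genes left out, 80 with a minimum log2 change of 1, and 57 to 198 when single mice were left out. Of these 42 lay above and 105 below 0, and 41 and 58 after quantile normalization. With the replicate block, 2247 genes were called in chow-fed skin, 2149 of them shared with the fit without it, and 124 diet differences, 104 of them shared. The numbers were not taken to pair the mice. Every other setting kept both counts within 1.5 times. The causes of these changes were not tested. Values near the array background limit what can be seen of weakly expressed cytokine genes.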
